A study of Mus musculus with 14 samples.

Results

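The 8 genes described here make epithelial adhesion proteins: the claudins Cldn1, Cldn3, Cldn4, Cldn7 and Cldn8, occludin (Ocln), E-cadherin (Cdh1) and EpCAM (Epcam). They were taken by symbol from a table of 56414 genes, in which each of the 8 had 1 row, and all 8 were above the filter on low values in every comparison. RNA-seq of polyadenylated RNA was performed on 14 mammary tumors grown in female C57Bl/6 mice, of which 8 were M/D-driven tumors and 6 were AT3 tumors. M/D-driven tumors arose in the host's own gland after a slow-release pellet of MPA (medroxyprogesterone acetate, a synthetic progestin) and oral DMBA (dimethylbenzanthracene, a carcinogen), in females 6 to 9 weeks old at pellet implantation. AT3 tumors grew from 1 mouse mammary carcinoma cell line injected under the skin, so their cancer cells have a single source. Mice were randomized when tumors reached 0.25 cm2, and the NAM-treated mice received nicotinamide (NAM), a precursor of the coenzyme NAD+, at 0.5% in the drinking water for 10 days. The groups held 4 untreated M/D-driven, 4 NAM-treated M/D-driven, 3 untreated AT3 and 3 NAM-treated AT3 tumors, with 40936868 to 84178009 reads assigned to genes per tumor.

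Claudins form the strands of tight junctions, the belt that seals the space between neighboring epithelial cells, and occludin is a further membrane protein of that belt. E-cadherin holds cells together at the adherens junction through the catenins, and its loss is a classical sign of cells that leave the epithelial state. EpCAM is an adhesion molecule of simple epithelia that binds claudin-7. In breast tumors, low claudin expression is used to describe one expression subtype, which is the reason to look at these genes side by side in tumors that grew in different ways.

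The genes lie on 6 chromosomes of the mm10 genome. Cldn3 (chr5:134986213-134987476, plus strand) and Cldn4 (chr5:134945126-134946935, minus strand) are neighbors, with 39278 bases and no other listed gene between them. Cldn1 (chr16:26356648-26371841, minus strand) and Cldn8 (chr16:88560828-88563183, minus strand) share a chromosome. Cldn17 lies before Cldn8 in these coordinates, with 53849 bases and no listed gene between them. Cldn7 is on chr11 (69964779 to 69967886, plus), Ocln on chr13 (100497317 to 100552718, minus), Cdh1 on chr8 (106603350 to 106670247, plus) and Epcam on chr17 (87635979 to 87651127, plus).

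Promoter sequences from RefSeq (GRCm38.p6) were matched for 6 of the 8 genes. The 250 bases upstream of the start are shown for 4 of them, because Cldn3 and Cldn4 had the largest difference between the models, Epcam had none that could be told from the spread, and Cldn1 spanned the widest range over the 8 M/D-driven tumors. Each sequence is written 5′ to 3′ on the gene's own strand, from chr5:134985964-134986213 (Cldn3, plus), chr5:134946935-134947184 (Cldn4, minus), chr17:87635729-87635978 (Epcam, plus) and chr16:26371840-26372089 (Cldn1, minus). Capitals mark CAGGTG or CACCTG (the E-box letters bound by Snail and ZEB repressors), TGACTCA or TGAGTCA (the AP-1 letters) and GGGCGG or CCGCCC (the GC box), which were searched on both strands and did not overlap one another here.
Cldn3: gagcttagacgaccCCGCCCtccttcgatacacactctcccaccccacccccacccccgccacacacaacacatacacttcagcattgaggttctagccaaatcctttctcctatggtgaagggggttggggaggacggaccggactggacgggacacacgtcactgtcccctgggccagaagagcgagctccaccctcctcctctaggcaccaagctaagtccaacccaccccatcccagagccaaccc
Cldn4: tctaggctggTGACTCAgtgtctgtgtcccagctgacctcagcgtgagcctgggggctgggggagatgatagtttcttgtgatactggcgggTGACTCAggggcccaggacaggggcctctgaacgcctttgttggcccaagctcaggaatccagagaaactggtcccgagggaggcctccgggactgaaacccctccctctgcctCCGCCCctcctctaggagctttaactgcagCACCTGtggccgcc
Epcam: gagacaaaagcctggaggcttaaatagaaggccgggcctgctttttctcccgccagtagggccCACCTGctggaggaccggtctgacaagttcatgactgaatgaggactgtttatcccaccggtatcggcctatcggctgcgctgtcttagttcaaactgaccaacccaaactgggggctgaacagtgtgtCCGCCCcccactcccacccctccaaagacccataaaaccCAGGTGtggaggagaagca
Cldn1: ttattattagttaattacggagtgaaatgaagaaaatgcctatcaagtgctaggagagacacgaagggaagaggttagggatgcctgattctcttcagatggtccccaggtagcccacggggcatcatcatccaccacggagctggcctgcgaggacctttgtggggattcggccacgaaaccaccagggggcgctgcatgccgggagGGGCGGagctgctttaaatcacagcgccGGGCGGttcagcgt
The neighbors Cldn3 and Cldn4 differ in these letters. The Cldn4 window holds 1 E-box, 2 AP-1 matches and 1 GC box, while the Cldn3 window holds 1 GC box and neither of the others. The Epcam window holds 2 E-boxes and 1 GC box, and the Cldn1 window holds 2 GC boxes only. Among 32851 promoter windows of the same length, 17.2% hold the E-box letters, 4.46% the AP-1 letters and 32.7% the GC box. These matches describe the letters and not sites in use.

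One tumor has to be set apart before the results. NAM-treated M/D replicate 1, which the labels assign to experiment 2 while the other 7 M/D-driven tumors are experiment 1, had the lowest value of the 8 M/D-driven tumors for 8 of 8 adhesion genes. It was 7.19-fold (Cldn3) to 44.3-fold (Cldn1) below the lowest of the other 7. Their summed level was 3275 normalized counts in it against 71188 to 185572 in the others. The 10 epithelial markers summed to 50112 against 237754 to 967467, with 9 of the 10 lowest and 1 highest in it. In the same tumor 9 of 10 B lineage markers were highest, with a sum of 375344 against 1121 to 2854 in the other 7. The pre-B cell receptor gene Vpreb1 had a deposited normalized count of 67823 there and at most 55.5 in any other M/D-driven tumor. Summed markers of other cells were above the range of the other 7 too, at 243608 against 90678 to 159445 for leukocytes, 25887 against 7168 to 14766 for endothelium and 108087 against 21796 to 98174 for adipocytes. The sum of the mesenchymal markers, 140946, and the level of the pan-leukocyte gene Ptprc, 9717 deposited normalized counts, were within the range of the others. How much of this tumor's low adhesion gene values goes with its cell content was not tested, and in bulk tumors fewer epithelial cells and less RNA per cell cannot be told apart. For the 8 genes, the comparisons between groups that include this tumor, the spread relative to keratins and the nearest genes by pattern are given with and without it below. For the partner genes this was done in part.

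**Figure D1:**
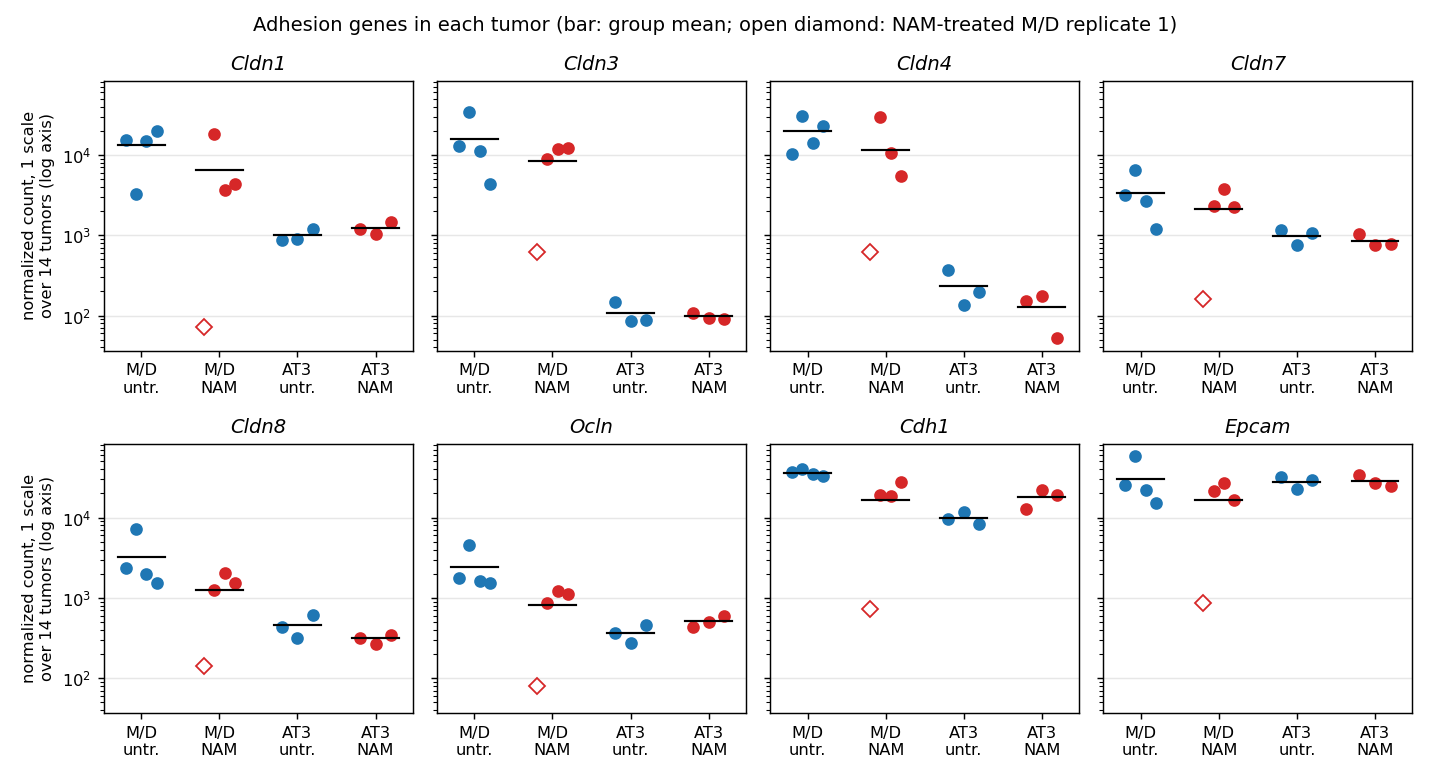
Normalized count of the 8 adhesion genes in each of 14 tumors, rescaled together, on a log axis with 1 panel per gene; points are tumors, blue untreated and red NAM-treated, bars are group means, and the open diamond is NAM-treated M/D replicate 1. The diamond sits at the bottom of the M/D-driven tumors in all 8 panels, and AT3 tumors lie below every M/D-driven tumor for Cldn3 and Cldn4 but within their range for Epcam.

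The authors normalized the M/D-driven and the AT3 tumors apart, so levels between the models were compared after the reads of all 14 tumors were put on 1 scale. Per kilobase of transcript on this scale, the order in untreated M/D-driven tumors was Epcam (14852 ± 9454 normalized counts per kb, SD, n = 4), Cldn3 (12453), Cldn4 (10801), Cdh1 (8182 ± 768), Cldn1 (3208), Cldn7 (2521), Cldn8 (1387) and Ocln (590 ± 365). Only the step from Cdh1 to Cldn1 separated neighbors without overlap of their ranges, so the ranges do not rank the first 4 genes among themselves. Within each of the 4 tumors, Epcam was above Cldn3 per kb, Cldn7 above Cldn8 and Cldn8 above Ocln. In untreated AT3 tumors Epcam stood first (13686 ± 2450, SD, n = 3), followed by Cdh1 (2228 ± 416) and Cldn7 (739 ± 156), each without overlap with the next. The lower places, Cldn1 (240), Cldn8 (193), Cldn4 (128), Ocln (90.2) and Cldn3 (84.4), overlapped with their neighbors. Cldn3, second by mean in the untreated M/D-driven tumors, was thus last by mean in untreated AT3 tumors, and Cldn7 was the claudin of highest level in AT3 tumors. The order was the same in NAM-treated AT3 tumors for the first 5 genes, from Epcam (13847 per kb) to Cldn8 (133).

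The comparison of untreated tumors asked how the 2 models differ in these genes. Expression of 7 of 8 was higher in M/D-driven tumors, and no adhesion gene was lower. This call, an unadjusted p of at most 0.05 with a fold of at least 1.5 in limma, was met by 30.1% of the 21713 genes tested in the higher and 26.4% in the lower direction. The median log2 fold change was 2.59 over the 8 genes and 0.04 over all genes. The same 7 had groups that did not overlap, as did 28.1% of all genes in that direction. With the values as deposited, the median over all genes was 0.48, with 8402 genes higher and 3827 lower instead of 6529 and 5732, and with TMM scaling it was 0.16. AT3 tumors and untreated M/D-driven tumors belong to different experiments in the labels, so model and experiment cannot be told apart.

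Cldn3 and Cldn4 had the largest differences of the 8. Cldn3 was at 12763, 34476, 11079 and 4396 normalized counts in the 4 untreated M/D-driven tumors and at 147, 84.6 and 86.8 in the 3 untreated AT3 tumors. Even the lowest M/D-driven tumor was far above the highest AT3 tumor, and the difference was 117-fold (log2 fold change 6.87, SE 0.59, 95% CI 5.53 to 8.21, limma adjusted p = 0.000119). Its neighbor Cldn4 was at 10313, 30683, 14255 and 23205 in M/D-driven and 367, 135 and 197 in AT3 tumors, a difference of 83.7-fold (log2 6.39, SE 0.44, 95% CI 5.39 to 7.38, adjusted p = 5.16e-05). Both genes were thus still counted in every AT3 tumor, at a low level.

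The other claudins and occludin differed less. Cldn1, which is essential for the skin barrier, was at 15183, 3248, 15100 and 19653 in M/D-driven and 877, 902 and 1210 in AT3 tumors (log2 3.48, SE 0.56, adjusted p = 0.00143). M/D replicate 2 stands below the other 3 for this gene, while for the other 7 adhesion genes it was the highest of the untreated tumors. Cldn8, a claudin of tight epithelia such as the collecting duct, was at 2358, 7205, 1981 and 1531 against 435, 314 and 616 (log2 2.61, SE 0.50, adjusted p = 0.00323). Ocln was at 1794, 4601, 1622 and 1546 against 367, 272 and 457 (log2 2.57, SE 0.40, adjusted p = 0.00119). For both, M/D replicate 2 was more than 2 times the next tumor and the groups did not overlap. The claudin with the smallest difference was Cldn7, the partner of EpCAM, at 3162, 6434, 2681 and 1187 against 1147, 751 and 1063 (log2 1.55, SE 0.49, 95% CI 0.43 to 2.66, adjusted p = 0.0273). The call of Cldn7 was lost without untreated AT3 replicate 2 (log2 1.36, unadjusted p = 0.0586).

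Outside the tight junction, Cdh1 and Epcam behaved differently from each other. Cdh1 varied little within the models, at 37292, 40456, 34647 and 32588 in M/D-driven and 9537, 11858 and 8218 in AT3 tumors, and was 3.70-fold higher in M/D-driven tumors (log2 1.89, SE 0.20, 95% CI 1.43 to 2.34, adjusted p = 0.000252). Epcam was at 25569, 58469, 22123 and 15033 in M/D-driven and 32203, 22427 and 29127 in AT3 tumors. The 2 groups overlapped and no difference was detectable (log2 -0.06, SE 0.42, adjusted p = 0.919), with a 95% confidence interval of the M/D to AT3 ratio from 0.497 to 1.86. A high Epcam level and a low Cldn3 and Cldn4 level were therefore found in the same AT3 tumors.

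Junction partners were higher in untreated M/D-driven tumors too, beside 30.1% of all genes called higher and 26.4% called lower. Of 13 tight junction partners, 9 were higher and none lower (median log2 fold change 1.67), among them the scaffold genes Cgn (cingulin, 4.37) and Tjp1 (ZO-1, 2.15). All 9 genes of the cadherin-catenin and nectin list were higher (median 2.04), with Nectin4 (5.07), Nectin1 (3.24) and Vcl (vinculin, 2.43) as examples. Of 9 desmosome genes, 8 were higher (median 5.89). The desmocollin Dsc2 was at 3049 to 8245 normalized counts in M/D-driven tumors and at 0 to 2.42 in AT3 tumors. Of 11 activators of epithelial genes, 10 were higher (median 2.64), such as Klf5 (4.98), Elf5 (3.03) and the splicing regulators Esrp2 (3.02) and Esrp1 (1.36). Among 6 repressors of epithelial adhesion genes, Zeb1 (2.59), Zeb2 (2.07) and Snai2 (1.39) were higher and Twist1 was lower (-2.97) in M/D-driven tumors. Of 12 other claudins, 5 were higher (median 3.19, or 3.56 with the 4 that were at 0 in AT3 tumors set to their bound), such as Cldn23 (5.09) and Cldn10 (2.62). Among other cadherins, Cdh3, the P-cadherin of basal cells, was higher (4.61) and Cdh2 was lower (-1.33). Of 10 epithelial markers, 4 were higher (median 0.50), with Krt19 (5.76) and Krt5 (4.17) among them. Leukocyte and adipocyte markers moved in the same direction, with 7 of 8 (median 2.20) and 6 of 6 (median 6.64) higher in M/D-driven tumors. Summed B lineage markers were at 1121 to 2854 in M/D-driven tumors other than NAM-treated replicate 1 and at 1986 to 5865 in AT3 tumors, both treatments included. The lowest of these AT3 sums was in a NAM-treated tumor. In untreated tumors alone the B lineage sums did not overlap on this scale and were higher in AT3 tumors. Between the same sets of tumors, both treatments included, the sums of fibroblast (87192 to 485513 and 87812 to 357306), endothelial, mesenchymal and skeletal muscle markers overlapped too. In untreated tumors alone the mesenchymal sums did not overlap and were higher in M/D-driven tumors. The mesenchymal gene Vim was at 35046 to 69910 in untreated M/D-driven and 23191 to 26905 in untreated AT3 tumors. The part of such markers in these differences was not tested.

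Under NAM the models were compared once more. Cldn3 was at 612, 8958, 11750 and 12027 normalized counts in the 4 NAM-treated M/D-driven tumors and at 109, 94.3 and 89.2 in the 3 NAM-treated AT3 tumors. Cldn4 was at 619, 29305, 10702 and 5406 against 150, 175 and 51.8. For both genes even M/D replicate 1 lay above all AT3 tumors, as was the case for 15.2% of genes, and both were higher in M/D-driven tumors (Cldn3 log2 fold change 5.75, SE 1.00, adjusted p = 0.0178). For Cldn4 the log2 fold change was 5.67 (SE 1.18, adjusted p = 0.0295). None of the other 6 genes was called, beside 15.3% of 21425 genes called higher and 10.0% called lower (3279 and 2148 genes, and 4837 and 1071 with the values as deposited). Without NAM-treated M/D replicate 1, Cldn1 (2.44), Cldn7 (1.67), Cldn8 (2.34) and Ocln (1.06) were called higher as well, beside 20.2% of 21267 genes, and Cdh1 (0.29, 95% CI -0.40 to 0.98) and Epcam (-0.40, 95% CI -1.01 to 0.21) were not. None of the 13 tight junction partners and 9 cadherin-catenin and nectin genes was called between NAM-treated models, and 3 and 4 of them were higher without replicate 1. Among the adhesion genes, Cdh1 was thus the 1 gene called between untreated tumors and not called between NAM-treated tumors in either of these sets; the test of that difference is the test of the NAM effects against each other, given below.

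**Figure D2:**
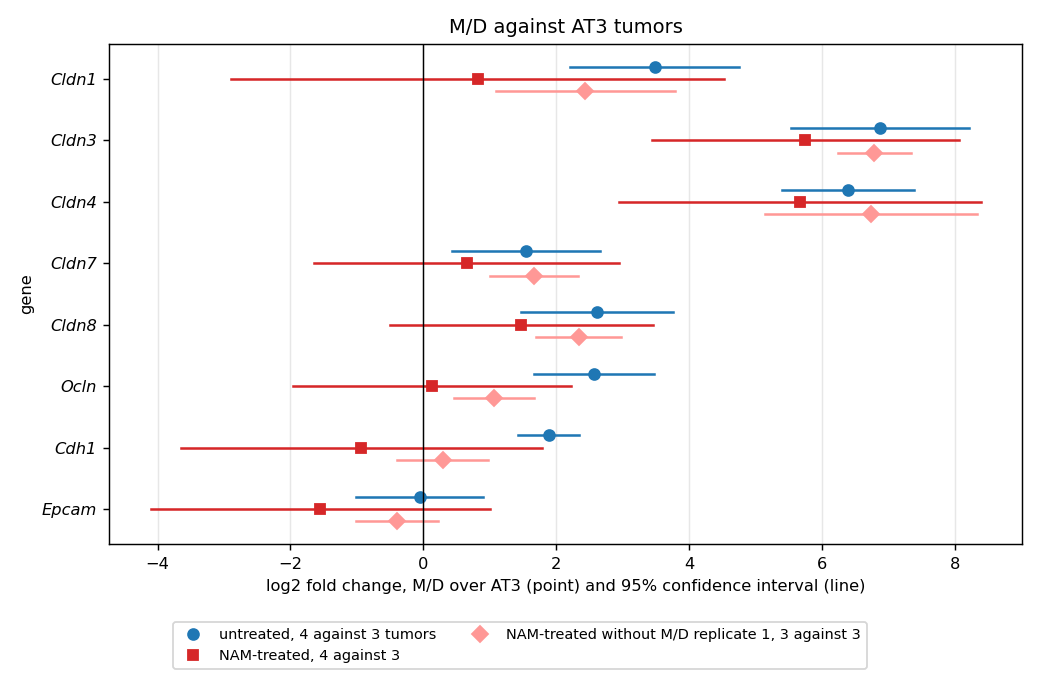
Log2 fold change of M/D-driven over AT3 tumors (x axis) for the 8 adhesion genes (y axis), with 95% confidence intervals, in untreated tumors (blue circles), NAM-treated tumors (red squares) and NAM-treated tumors without M/D replicate 1 (pink diamonds). Cldn3 and Cldn4 lie at 5.67 or above in every set, and the intervals of Epcam include 0 in every set.

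The comparison of NAM-treated with untreated M/D-driven tumors addressed the effect of NAM in the host-derived model. All 8 adhesion genes had lower mean log2 levels in NAM-treated tumors and none of them was called, beside 3.19% of 21700 genes called lower and 3.03% called higher. The median log2 fold change of the 8 genes was -1.64, against 0.01 over all genes. Untreated tumors had deposited Ocln counts of 1942, 4898, 1773 and 1663, and NAM-treated tumors of 86.6, 908, 1330 and 1269. These groups did not overlap, and the limma confidence interval of the change included 0 (log2 -1.93, SE 0.87, 95% CI -3.91 to 0.05, unadjusted p = 0.0552, adjusted p = 0.734). Cdh1 was at 40386, 43070, 37883 and 35044 in untreated and 773, 20533, 19959 and 31298 in NAM-treated tumors (log2 -1.97, SE 1.06, 95% CI -4.38 to 0.45, adjusted p = 0.739). These 2 genes were the members whose groups did not overlap, as were 2.0% of all genes in the lower direction.

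Replicate 1 widened these intervals. Without it Cdh1 was lower by 1.67-fold (log2 -0.74, SE 0.21, 95% CI -1.22 to -0.25, unadjusted p = 0.0087) and Ocln by 1.99-fold (log2 -1.0, SE 0.40, 95% CI -1.93 to -0.07, unadjusted p = 0.0387), beside 2.33% of 21489 genes called lower. The adjusted p was 0.812 for both, so neither passed a correction over all genes. Ocln was also called by DESeq2 with all 8 tumors (log2 -1.53, unadjusted p = 0.0418, beside 3.71% of genes called lower by that tool), and in limma without NAM-treated replicate 3 (unadjusted p = 0.04) or replicate 4 (unadjusted p = 0.0451).

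The claudins and Epcam overlapped between the treatments. Cldn1 was spread most, at 16443, 3458, 16511 and 21134 in untreated and 78.1, 19146, 4029 and 4835 in NAM-treated M/D-driven tumors (log2 -2.35, SE 1.53, 95% CI -5.85 to 1.16). Cldn4 was at 11168, 32666, 15586 and 24953 against 664, 31050, 11651 and 6072 (log2 -1.65, SE 1.04), and among the alternatives run it was called lower only without NAM-treated replicate 2 (log2 -2.43, unadjusted p = 0.0345). Cldn3 was at 13822, 36703, 12114 and 4727 against 657, 9491, 12791 and 13508 (log2 -1.19, SE 1.03). In each of these 3 genes at least 1 NAM-treated tumor lay above 2 or more of the untreated ones. Epcam was at 27691, 62247, 24189 and 16166 against 932, 22674, 29344 and 18716 (log2 -1.46, SE 1.05). Cldn8 and Cldn7 had log2 fold changes of -1.62 (SE 0.87) and -1.08 (SE 0.98). Without replicate 1 the estimates shrank to -0.06 (Cldn7), -0.15 (Cldn3), -0.31 (Epcam), -0.58 (Cldn4), -0.72 (Cldn1) and -0.75 (Cldn8), and the median of the 8 genes to -0.65. The interval of Cldn3 was then -1.57 to 1.28, so a change of more than 2-fold in either direction could not be told from none.

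Partners in M/D-driven tumors gave few calls, beside 3.19% of all genes called lower and 3.03% called higher with NAM. None of 13 tight junction partners (median -1.09) and none of 9 desmosome genes (median -2.07) was called. Of 9 cadherin-catenin and nectin genes, Ctnnd1 (p120-catenin, -0.66) and Nectin2 (-0.63) were lower, and without replicate 1 neither was. Of 11 activators of epithelial genes, Klf5 (-3.20) and Ehf (-2.08) were lower with all tumors, and Klf5 (-1.94), Ehf (-1.08) and Ovol2 (-0.95) without replicate 1. Cdh2, the neural cadherin, was the one gene called higher among 7 other cadherins (1.66, and 2.43 without replicate 1). None of 6 repressors of adhesion genes was called (median 0.42). Among 13 other claudins, Cldn10 was higher (1.70), and Cldn17 (-5.02) and Cldn23 (-3.04) were lower, of which Cldn23 (-1.79) alone was called without replicate 1.

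**Figure D3:**
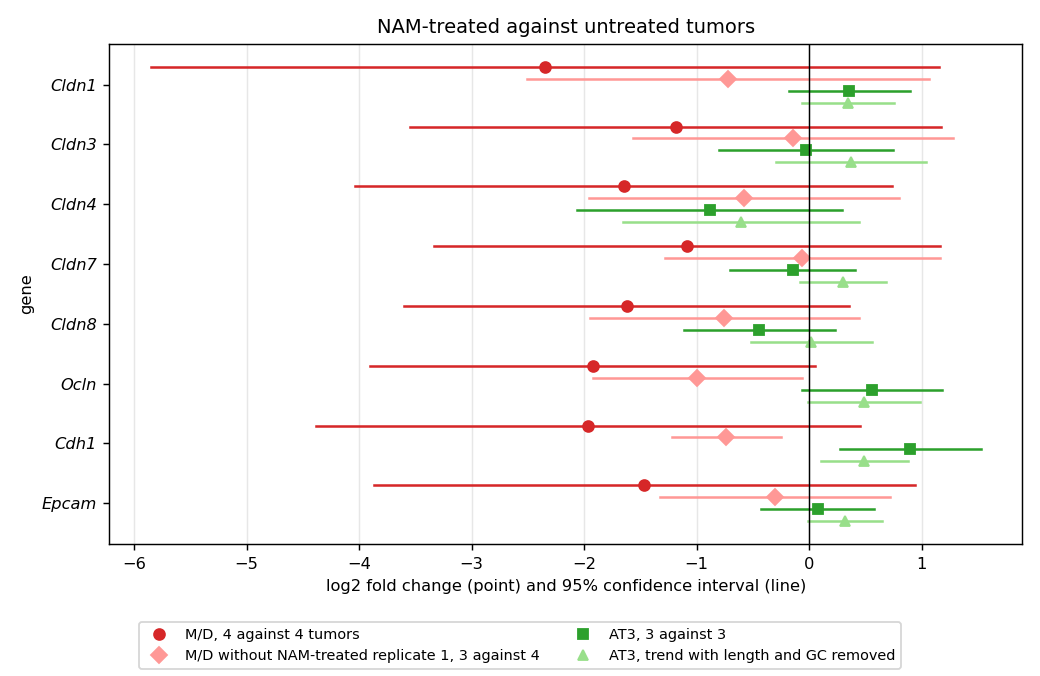
Log2 fold change of NAM-treated over untreated tumors (x axis) for the 8 adhesion genes (y axis), with 95% confidence intervals, in M/D-driven tumors with (red circles) and without (pink diamonds) NAM-treated replicate 1 and in AT3 tumors before (dark green squares) and after (light green triangles) the trend with transcript length and GC content was removed. Cdh1 lies at -0.74 without replicate 1 in M/D-driven tumors and at 0.90 in AT3 tumors, where it falls to 0.49 once the trend is removed.

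In AT3 tumors NAM was followed by a higher Cdh1 level. Cdh1 was at 7687, 9957 and 6626 deposited normalized counts in untreated and 10460, 19039 and 16535 in NAM-treated AT3 tumors. Every NAM-treated tumor was above every untreated one, by 1.87-fold on average (log2 0.90, SE 0.28, 95% CI 0.27 to 1.53, unadjusted p = 0.0101, adjusted p = 0.166). It was the 1 of 8 genes called, beside 12.2% of 19281 genes called higher, 10.9% called lower and 11.7% higher without overlap, and the change did not pass the correction over all genes in limma. The call was lost without NAM-treated replicate 2 (log2 0.72, unadjusted p = 0.0528). The median of the 8 genes was 0.02, against -0.05 over all genes.

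Ocln was the next gene by estimate, at 296, 228 and 369 in untreated and 363, 428 and 512 in NAM-treated AT3 tumors (log2 0.56, SE 0.27, 95% CI -0.06 to 1.18). The ranges overlapped by 1 pair of tumors only. Cldn1 was at 707, 757 and 976 against 976, 895 and 1261 (log2 0.36, SE 0.24, 95% CI -0.18 to 0.90). Cldn4, already low, was at 296, 114 and 159 against 124, 151 and 44.6 (log2 -0.88, SE 0.52, 95% CI -2.06 to 0.29). Epcam stayed within 18832 to 27578 in all 6 tumors (log2 0.07, SE 0.22), with a 95% confidence interval of the ratio from 0.743 to 1.49. Cldn3 (-0.03, SE 0.34), Cldn7 (-0.15, SE 0.25) and Cldn8 (-0.44, SE 0.29) were not called, and each of the 3 was above 0 once the length and GC trend was removed (0.37, 0.30 and 0.02). With 1 tumor left out, Ocln was called higher without untreated replicate 3 (0.73) or NAM-treated replicate 1 (0.68), and Cldn8 lower without untreated replicate 2 (-0.66).

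Transcript length moved with the change in AT3 tumors. By quartile of the longest annotated transcript, the median log2 fold change over all genes was -0.54 (up to 1960 bases), -0.11 (1961 to 3118), 0.21 (3119 to 4577) and 0.61 (4578 and more), whereas in M/D-driven tumors it was 0.01, -0.01, -0.02 and -0.04. Among the adhesion genes, Cdh1 (4430 bases), Cldn1 (4145) and Ocln (4052) fall in the third of these quartiles and had the 3 highest changes. Cldn8 (2356) and Epcam (2040) fall in the second, and Cldn4 (1816), Cldn7 (1335) and Cldn3 (1259) in the first. With the trend removed, Cdh1 was at 0.49 (95% CI 0.11 to 0.87, unadjusted p = 0.0178), below the fold needed for a call. None of the 8 genes was then called, beside 8.74% higher and 7.23% lower of 16428 genes, and their median was 0.33 against 0.03 over all genes. Cldn4 was then the 1 adhesion gene below 0 (-0.61).

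Partners at both junctions were called higher in NAM-treated AT3 tumors, beside 12.2% of all genes called higher and 10.9% called lower. With the length and GC trend removed these shares were 8.74% and 7.23%. Of 13 tight junction partners, 7 were higher and none lower (median 0.96), with Cgnl1 (1.4) and the polarity genes Pals1 (1.11) and Pard6b (0.96) as examples. With the trend removed 4 remained above the threshold (median 0.33), which were Pals1 (0.84), Pard6b (0.78), Cgn (0.72) and Cgnl1 (0.66). Of 9 cadherin-catenin and nectin genes, 5 were higher (median 0.97), among them Afdn (afadin, 1.28), Ctnnd1 (1.21), Nectin4 (1.11) and Ctnna1 (0.97). Of these, Nectin4 (0.86) and Ctnna1 (0.76), were called with the trend removed. Of 11 activators, 5 were higher (median 0.75), such as Grhl1 (1.0), Esrp1 (0.93), Ehf (0.85) and Grhl2 (0.75), and 4 were called with the trend removed (median 0.28). The repressor Zeb1 (1.45) was higher as well. Of 6 desmosome genes tested, Dsg2 (1.53) and Evpl (1.46) were higher, and of 6 other claudins, Cldn2 was higher (1.5) and 2 were lower, Cldn15 (-1.17) among them. Keratins went the other way, with Krt19 (-1.24), Krt7 (-0.92) and Krt14 (-0.79) called lower among 10 epithelial markers and 1 of the 10 with the trend removed. The summed epithelial markers were at 97319 to 125950 deposited normalized counts in untreated and 70833 to 81890 in NAM-treated AT3 tumors. Ptprc was at 697 to 1186 in untreated and 1385 to 1525 in NAM-treated tumors, without overlap. Of 8 leukocyte markers, 4 were higher and 1 was lower (median 0.55), while their sum overlapped, at 20381 to 60725 and 28083 to 42641. The part of these markers in the changes of the adhesion genes and their partners was not tested.

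The NAM effects in the 2 models were compared with each other in 1 fit over all 14 tumors. Ocln and Cdh1 were called, beside 7.9% of 22710 genes called lower in M/D-driven than in AT3 tumors and 6.97% called higher (1795 and 1582 genes, and 2293 and 1201 with TMM scaling). The difference of the NAM effects, M/D-driven minus AT3, was -2.48 for Ocln (SE 1.07, 95% CI -4.79 to -0.18, unadjusted p = 0.0364, adjusted p = 0.307). For Cdh1 it was -2.86 (SE 1.30, 95% CI -5.66 to -0.07, unadjusted p = 0.0452, adjusted p = 0.328). Without NAM-treated M/D replicate 1 both were smaller and better resolved, at -1.55 for Ocln (SE 0.51, unadjusted p = 0.0092, adjusted p = 0.189) and -1.64 for Cdh1 (SE 0.35, 95% CI -2.40 to -0.87, unadjusted p = 0.000495, adjusted p = 0.148), beside 9.55% called lower. With the length and GC trend removed, Ocln was at -2.46 (unadjusted p = 0.0446, beside 6.81% of genes called lower) and Cdh1 at -2.45 (unadjusted p = 0.085). The call of Cdh1 was lost when any 1 untreated M/D-driven tumor or any 1 AT3 tumor was left out (unadjusted p from 0.0509 to 0.0855), and that of Ocln without untreated M/D replicate 2, untreated AT3 replicate 1 or 2, or NAM-treated AT3 replicate 2 or 3 (unadjusted p from 0.058 to 0.0774). No gene of the 22710 (0.0%) passed an adjusted p of 0.05 in this limma comparison, in which 3387 had an unadjusted p of at most 0.05, and edgeR also gave 0 while DESeq2 gave 833. The other 6 genes were not called, with Cldn4 at -0.77 and at 0.31 without replicate 1. Of the partners, 7 of 13 tight junction genes (median -1.66) and 5 of 9 cadherin-catenin and nectin genes (median -1.87) were lower, and none was higher. With the trend removed, 2 and 4 of them were lower. These counts include NAM-treated M/D replicate 1 and are not given without it. That tumor was the lowest M/D-driven tumor for 12 of the 13 and for 9 of the 9 genes.

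Within M/D-driven tumors the adhesion genes were set against the luminal keratins Krt8 and Krt18, the keratins of simple epithelial cells. Cldn3 had the narrowest ratio of the 8, with 15.2 to 50.4 counts per 100 counts of Krt8 plus Krt18 (median 28.7), a spread of 3.32-fold over the 8 tumors. Cldn7 (4.04-fold), Cldn8 (4.30-fold), Epcam (5.03-fold), Ocln (6.07-fold) and Cdh1 (8.53-fold) followed. Cldn4 (7.75 to 165 per 100, 21.3-fold) and Cldn1 (2.84 to 122 per 100, 42.8-fold) were the 2 genes whose ratio to these keratins varied by more than 10-fold. With all 8 tumors the levels varied more than the ratios for 8 of 8 genes, from 40.5-fold for Cldn7 to 270-fold for Cldn1. That order rests on NAM-treated replicate 1. Without it the ratios span the same folds, while the levels span 7.84-fold for Cldn3, 5.42-fold for Cldn7, 5.83-fold for Cldn8, 3.89-fold for Epcam, 5.37-fold for Ocln, 2.21-fold for Cdh1, 5.68-fold for Cldn4 and 6.05-fold for Cldn1. In these 7 tumors the ratio varied less than the level for Cldn3, Cldn7 and Cldn8, and more for the other 5 genes. NAM-treated replicate 1, lowest in level for all 8 genes, lay inside the range of the other 7 M/D-driven tumors for all 8 once they were set against Krt8 and Krt18. Set against the sum of 10 epithelial markers, basal keratins included, it lay below the other 7 for Cldn1 (0.145 counts per 100 marker counts, against 0.950 or more), Cldn4 (1.23 against 1.75 or more) and Cdh1 (1.44 against 3.15 or more), and inside their range for the other 5. In this tumor 9 of the 10 markers had their lowest value of the 8 M/D-driven tumors and 1 had its highest. Of its marker sum of 50112, Krt8, Krt18, Krt5 and Krt14 held 968, 1305, 558 and 395. These ratios thus depend on which markers are summed. The order of the genes changed as well, with a log2 range of the ratio of 2.86 for Cldn4 and 4.47 for Cldn3.

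**Figure D4:**
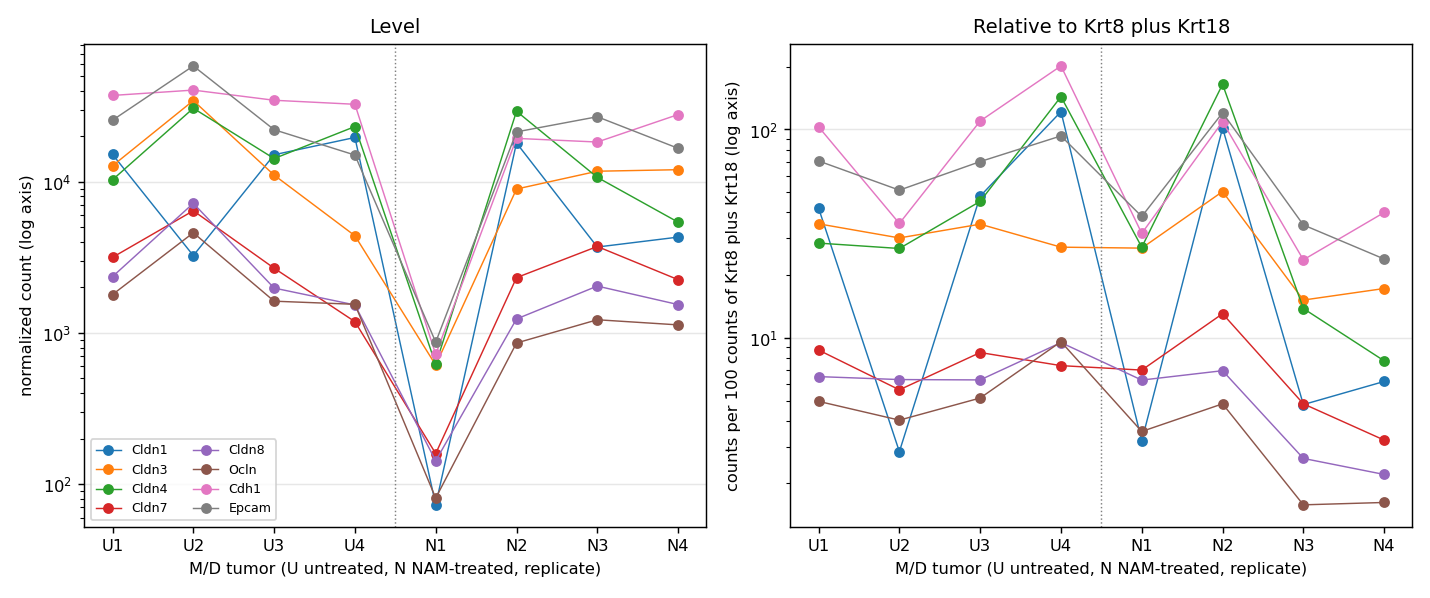
Levels of the 8 adhesion genes in the 8 M/D-driven tumors on a log axis, as normalized counts (left) and as counts per 100 counts of Krt8 plus Krt18 (right); U is untreated, N is NAM-treated, lines join 1 gene across tumors and have no order. On the left N1 is the lowest tumor, and the levels span 40.5-fold or more for every gene with it and 2.21-fold to 7.84-fold without it; on the right Cldn3 spans 3.32-fold and Cldn1 42.8-fold, with or without N1.

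Cldn1 and Cldn4 departed from Cldn3 in certain tumors, which was noticed after the values were seen and is given without a test. The ratio of Cldn1 to Cldn3 counts was 1.19, 0.0942, 1.36 and 4.47 in untreated replicates 1 to 4 and 0.119, 2.02, 0.315 and 0.358 in NAM-treated replicates 1 to 4. The ratio of Cldn4 to Cldn3 counts was 0.808, 0.890, 1.29 and 5.28 and then 1.01, 3.27, 0.911 and 0.449. The same tumors, untreated replicate 4 and NAM-treated replicate 2, were first and second for both ratios. They were also first and second for the ratio of the basal keratins Krt5 plus Krt14 to Krt8 plus Krt18, which was 4.97, 0.679, 13.99 and 53.9 in untreated and 0.419, 28.5, 0.654 and 2.36 in NAM-treated tumors. The 4 tumors of highest Cldn1 to Cldn3 ratio held the 4 highest keratin ratios in the same order. Both treatments had tumors at either end.

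**Figure D5:**
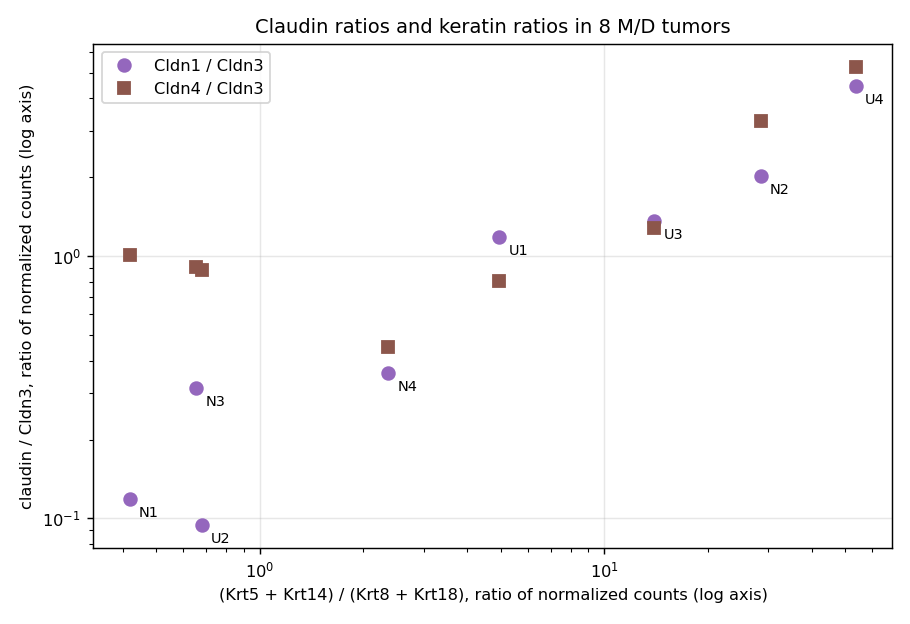
Ratio of Cldn1 to Cldn3 (purple circles) and of Cldn4 to Cldn3 (brown squares) against the ratio of Krt5 plus Krt14 to Krt8 plus Krt18 in the 8 M/D-driven tumors, on log axes, with U for untreated and N for NAM-treated replicates. U4 and N2 lie at the upper right for both ratios, at 4.47 and 2.02 for Cldn1 to Cldn3.

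Genes with a pattern most like the mean of the 8 were named by the smallest root mean square difference of centered log2 values over the tumors of a model. In the 8 M/D-driven tumors these were Plet1 (0.23), Kdf1 (0.24), Rab15 (0.27), Ptprf (0.29), Chmp4c (0.31) and Lsr (0.31), while the mean pattern itself had a root mean square of 1.63. Lsr is a protein of tricellular junctions and Ptprf a receptor phosphatase. Of the 8 genes themselves, Epcam was nearest to their mean (0.27) and Cldn1 farthest (1.37). The names rest on NAM-treated replicate 1, in which all 8 were lowest. Without it the mean pattern had a root mean square of 0.42, and 0 of the 6 nearest genes were shared, with Parp16 (0.13) as the nearest and Galnt3 (0.15) among them. Epcam was still the nearest of the 8 genes (0.28) and Cldn1 the farthest (1.25). In AT3 tumors the mean pattern varied little (0.14 over 6 tumors), and the nearest genes there included Klhl5 (0.0206), Lmbrd1 (0.0396), Tmem30b (0.0405), Nipal2 and Dolk. With the mean taken over the 5 claudins alone, 5 of the 6 nearest genes were shared in M/D-driven tumors and 0 of the 6 in AT3 tumors.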

How the data were processed

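RNA of 14 tumors was sequenced as paired reads after selection of polyadenylated RNA, and the authors aligned the reads to mm10 with STAR 2.4.0, counted them in constitutive gene regions of Mouse FAST DB and divided them by DESeq2 size factors. The deposited values are thus a normalized signal (normalized read counts), made separately for the M/D-driven and the AT3 tumors. The authors' own fold change and p-value columns were not used. Whole reads were recovered for 100% of values (tolerance 0.01), and depth is their sum over the listed genes (40936868 to 84178009). The precision of 1 value is limited by the spread between tumors.

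Each comparison was fitted with limma 3.58.1 (R 4.3.3, two-sided, trended prior) on log2(normalized count + 1) for every gene whose mean reached 10 in 1 group or more. Fold changes are on that scale, which understates the change of low genes. A call is an unadjusted p of at most 0.05 with a fold of at least 1.5, and Benjamini-Hochberg adjusted p-values are over all genes tested. Comparisons between models used the recovered reads, scaled by median of ratios over all 14 tumors. The models were compared for the NAM effect by an interaction term in 1 fit. edgeR 4.0.16 and DESeq2 1.42.0 on the recovered reads, TMM scaling, other pseudocounts and filters, a replicate block, removal of a trend with transcript length and GC content, and leaving out each tumor were alternatives. The fits were tested on simulated data in which every gene had the same setting for the spread between samples. The wider spread of genes such as Cldn1 was not simulated, so that check does not give the power of these comparisons. Transcript length was the longest GENCODE transcript (85.2% of tested AT3 genes had one). The labels do not state that each tumor came from another mouse, so p-values measure the spread between these samples.

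The 8 genes, the partner and marker lists and the tests were chosen with earlier results of these data known. Text names all 8 genes, Krt8, Krt18 and Ptprc, up to 4 called genes of smallest p in each list, and the 6 nearest genes by pattern. Vpreb1, Krt5 and Krt14 and a few further list genes were named after their values were seen. With the deposited values set on the scale over 14 tumors, deposited counts were 1.06 to 1.12 times the rescaled ones in M/D-driven and 0.81 to 0.86 times in AT3 tumors. Some genes that this rule names are not reported here.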

Additional observations from a re-analysis of the deposited data

Results flagged for a closer look

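Within groups of 4 tumors, a tumor was singled out where its gap to the nearest other tumor took most of the group's range. The 8 genes were tested in both M/D-driven groups, which gives 16 groups on 2 scales (normalized count and log2), and chance alone singles out about 1 in 20 groups. There were 9 such cases. NAM-treated M/D replicate 1 was the lowest tumor on the log2 scale for Cldn3 (gap of 0.883 of the range), Cldn7 (0.842), Cdh1 (0.878), Epcam (0.870) and Ocln (0.860). Untreated M/D replicate 2 was the highest for Cldn8 in normalized counts (0.849) and for Ocln in normalized counts (0.914) and on the log2 scale (0.856). For Cldn1 the same tumor was instead the lowest untreated one on the log2 scale (0.861). These are the same tumors that stand apart in the levels above, so the cases are not independent of one another.

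The NAM effect differed between the models in the interaction test for Cdh1 (-2.86) and Ocln (-2.48). Neither passed the correction over all genes in limma.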

How the results depend on the processing

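Of the log2 fold changes of the 8 genes under all alternatives, 735 kept their direction and their side of the threshold, 22 gained and 24 lost the call, and 27 changed sign. The cause of these shifts was not tested, except that a stricter or looser filter changes how many genes are tested.

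In M/D-driven tumors 1350 genes were called for NAM, against 2180 with no filter on low values, 859 with a minimum group mean of 50, 2092 with DESeq2, 2132 with all 14 tumors in 1 fit and 1 at an adjusted p of at most 0.05 (179 with DESeq2, 0 with edgeR), and 784 to 2712 with 1 tumor left out. The split of higher and lower genes, 658 and 692, was 1287 and 805 with DESeq2, 992 and 645 with edgeR and 312 and 547 with the minimum of 50. Of the 8 genes 0 were called, against 1 with no filter, 1 with DESeq2, 1 with the replicate block (Ocln, unadjusted p = 0.0478 in limma), 3 with all 14 tumors in 1 fit (Cldn8, Cdh1 and Ocln) and 0 to 2 with 1 tumor left out. Of all 21700 genes, 522 were called lower with the replicate block and 1207 with all 14 tumors in 1 fit, against 692 in the main fit.

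In AT3 tumors 4458 genes were called, against 2622 with the length and GC trend removed, 1 at an adjusted p of at most 0.05 and 1618 to 6765 with 1 tumor left out. That adjusted count was 2047 with DESeq2, 0 with edgeR, 2520 without untreated AT3 replicate 2, 2498 without NAM-treated AT3 replicate 1, and 0 or 1 without any other 1 tumor. Of the 8 genes 1 was called (Cdh1), against 0 with the trend removed, 0 at the adjusted threshold, 0 with all 14 tumors in 1 fit (unadjusted p = 0.377) and 0 to 2 with 1 tumor left out. Cldn3, at -0.03, was 0.012 with TMM scaling, 0.37 with the trend removed and -0.16 to 0.22 with 1 tumor left out. Cldn7 was 0.30 and Cldn8 0.018 with the trend removed, and Epcam was -0.056 to 0.18 with 1 tumor left out.

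For the difference of the NAM effects 3377 genes were called, against 2133 with the trend removed, 0 at the adjusted threshold and 1838 to 4574 with 1 tumor left out. Of the 8 genes 2 were called, against 1 with edgeR (beside 1769 of 22710 genes called lower), 1 with the trend removed, 0 at the adjusted threshold and 0 to 3 with 1 tumor left out. Cldn4 was 0.034 with edgeR, 0.12 with DESeq2 and -1.54 to 0.31 with 1 tumor left out, and Cldn7 was -1.44 to 0.085.

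Between untreated models 10893 to 12651 genes and 6 to 7 of the 8 were called with 1 tumor left out. Epcam, at -0.06, was 0.054 with TMM scaling, 0.19 with edgeR, 0.11 with DESeq2, 0.094 with the trend removed, 0.35 with the values as deposited, 0.22 with the replicate block and -0.44 to 0.22 with 1 tumor left out. Between NAM-treated models 5427 genes were called, against 1678 at the adjusted threshold and 3672 to 7086 with 1 tumor left out. Of the 8 genes 2 were called, against 4 with DESeq2 and 2 to 6 with 1 tumor left out. DESeq2 called 4197 genes higher and 2139 lower of the 21425 tested. With 1 tumor left out Cldn1 was -0.21 to 2.44, Cdh1 -1.47 to 0.29 and Ocln -0.24 to 1.06, and Ocln was -0.21 with the replicate block.

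With all 10 epithelial markers as denominator, the log2 range over M/D-driven tumors was 4.47 (Cldn3), 2.86 (Cldn4), 3.94 (Cldn7), 3.73 (Cldn8) and 3.46 (Epcam), against 1.73, 4.41, 2.01, 2.10 and 2.33 with Krt8 and Krt18. The genes nearest to the mean over the claudins shared 0 of 6 with those nearest to all 8 in AT3 tumors, and in M/D-driven tumors 0 of 6 were shared without NAM-treated replicate 1, an alternative added after the data were seen. Same-numbered untreated and NAM-treated tumors deviated together at correlations of -0.44 to 0.11 in M/D-driven and -0.16 to 0.26 in AT3 tumors, so the numbers were not taken as pairs. With the replicate block Cdh1 in AT3 tumors had an adjusted p of 0.049, and 1296 genes passed that threshold instead of 1.

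The 95% intervals of the NAM effect in M/D-driven tumors included 0 for 8 of 8 genes with all tumors (as far as -5.85 for Cldn1), and excluded 0 for Cdh1 and Ocln without NAM-treated replicate 1.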
